A study of Mus musculus with 22 samples.

Results

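Messenger RNA of 10 astrocyte genes was measured in the CA1 region of the mouse hippocampus and was compared between ages and diets. The genes were taken by name from the expression matrix as a fixed set of known astrocyte markers, and they are 10 of 23361 genes listed. Reactive markers were Gfap and Vim, and the 8 homeostatic markers were Aqp4, Gja1, Gjb6, Slc1a2, Slc1a3, Aldh1l1, Aldoc and S100b. All 10 were expressed in every library and all 10 passed the filter on low values. All mice were females of the Swiss Webster x DBA/C57BL6 F1 hybrid background, and they were fed ad libitum (AL, the normal diet without restriction) or a calorie-restricted diet (CR) in which the reduction was made in carbohydrates. There were 5 AL and 5 CR mice at 5 months of age and 6 AL and 6 CR mice at 15 months of age. Each mouse gave 1 library, and replicates were numbered from 0. Diets began before 5 months of age, so CR mice at 15 months had also been restricted for longer than those at 5 months. CA1 was microdissected as whole tissue, so each value is an average over all cell types in the piece. Comparisons therefore ask how astrocyte genes differed between the ages on each diet and between the diets at each age.

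Astrocytes feed neurons, take up transmitter and potassium, and wrap blood vessels with processes called endfeet. Genes for these tasks are called homeostatic. After injury, disease or inflammation, astrocytes can become reactive, a state in which they enlarge their skeleton of intermediate filaments, and the filament proteins GFAP and vimentin are the markers used most often. Hippocampal astrocytes make GFAP also in the resting state, and neural stem cells of the dentate gyrus, some ependymal cells and vascular cells share parts of the marker set, vimentin above all.

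The promoters of the 3 astrocyte genes that passed the test for age in AL mice are shown so that their contents can be compared. Each is the 250 bases before the start site given by RefSeq on GRCm38.p6, written 5′ to 3′ on the gene's own strand, and for Gfap and Aldh1l1 it lies inside the gene span given below because other transcripts start farther upstream. Gfap is on the minus strand at chr11:102897201-102897450, Aldh1l1 on the plus strand at chr6:90550543-90550792, and S100b on the plus strand at chr10:76253586-76253835. Capitals mark matches, on either strand, to 6 short motifs, which were the TATA box (TATAAA), the CCAAT box (CCAAT), the GC box (GGGCGG), the AP-1 site (TGANTCA), the STAT site (TTCNNNGAA) and the NFI half-site (TTGGC), the last of which can share letters with the CCAAT box.
Gfap: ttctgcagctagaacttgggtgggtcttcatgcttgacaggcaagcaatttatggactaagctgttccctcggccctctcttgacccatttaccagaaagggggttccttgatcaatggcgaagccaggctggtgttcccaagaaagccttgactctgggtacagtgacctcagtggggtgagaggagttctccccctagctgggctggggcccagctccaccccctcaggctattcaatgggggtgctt
Aldh1l1: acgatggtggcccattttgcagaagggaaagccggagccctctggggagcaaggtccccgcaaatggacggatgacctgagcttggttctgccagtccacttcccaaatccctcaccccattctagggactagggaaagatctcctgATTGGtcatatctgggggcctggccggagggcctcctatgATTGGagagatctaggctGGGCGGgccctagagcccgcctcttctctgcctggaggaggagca
S100b: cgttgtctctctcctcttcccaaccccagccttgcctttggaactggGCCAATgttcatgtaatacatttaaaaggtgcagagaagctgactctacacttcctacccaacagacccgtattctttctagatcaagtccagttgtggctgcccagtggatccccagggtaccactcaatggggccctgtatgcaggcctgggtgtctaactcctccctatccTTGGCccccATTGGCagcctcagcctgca

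No match to these letters lies in the Gfap window. Aldh1l1 has 2 CCAAT boxes on the opposite strand, with bases counted back from the start site at -103 to -99 and -63 to -59, and a GC box at -45 to -40. S100b has CCAAT boxes at -202 to -198 and -20 to -16 and 3 NFI half-sites, of which those at -203 to -199 and -19 to -15 share letters with the CCAAT boxes. Among 32851 RefSeq promoters of this length, 33.8% hold a CCAAT box, 41.5% an NFI half-site, 32.7% a GC box, 12.4% a TATA box, 7.02% the STAT site and 6.75% the AP-1 site. A promoter entry was found for 9 of the 10 genes. The matches describe these windows and show no binding.

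Values are FPKM (fragments per kilobase of transcript, scaled to the mapped fragments of the library) as deposited, so levels can be compared between genes. Read counts and the depth of each library were not used here, and precision is given by the spread between mice. The median FPKM of a library ranged from 2.51 to 3.10 and 18281 to 19175 genes were above 0. All 7 CA1 pyramidal neuron markers were above 0 in every library, with a summed level of 237 to 512 FPKM in AL mice at 5 months, 305 to 446 in CR mice at 5 months, 197 to 290 in AL mice at 15 months and 97.4 to 447 in CR mice at 15 months. Spink8, a defining CA1 marker, had 33.4 to 99.0 FPKM in AL mice at 5 months and 1.22 to 12.9 in AL mice at 15 months, with 52.9 to 102 and 3.598 to 51.3 in CR mice at 5 and 15 months. The mean log2 level of the CA1 list was lower in all AL libraries at 15 months (3.41 to 4.70) than in those at 5 months (4.75 to 5.71), whereas CR replicates 1 and 3 at 15 months (5.45 and 5.17) lay inside the 5-month range.

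The 10 genes were among the more abundant transcripts of this tissue, with the mean level of each above that of at least 79.7% of listed genes. In AL mice at 5 months, the order began with the glycolytic enzyme gene Aldoc at 364 ± 33.4 FPKM (SD, n = 5), then the glutamate transporter genes Slc1a2 at 251 ± 14.6 and Slc1a3 at 178 ± 16.5, and the ranges of these neighbors did not overlap. Gfap (121 ± 10.9), the connexin-43 gene Gja1 (104 ± 12.4) and S100b (88.0 ± 10.3) followed, and each overlapped the next. A lower tier held the water channel gene Aqp4 (33.6 ± 3.98), the connexin-30 gene Gjb6 (31.0 ± 5.76), Vim (22.6 ± 3.13) and the folate enzyme gene Aldh1l1 (19.1 ± 1.86), where neighbors again overlapped. By group means the same 3 tiers held the same genes in all 4 groups, but in CR mice at 15 months the ranges of Slc1a2, Slc1a3 and Gfap overlapped from one to the next. Gfap led the middle tier in 3 groups and stood below Gja1 in AL mice at 15 months, where Vim also had a lower mean than Aldh1l1. Over all 22 libraries Gfap had the widest range of the 10 genes, 3.09 times from 53.3 to 165 FPKM, and Slc1a2 the narrowest, 1.51 times from 203 to 308.

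**Figure D1:**
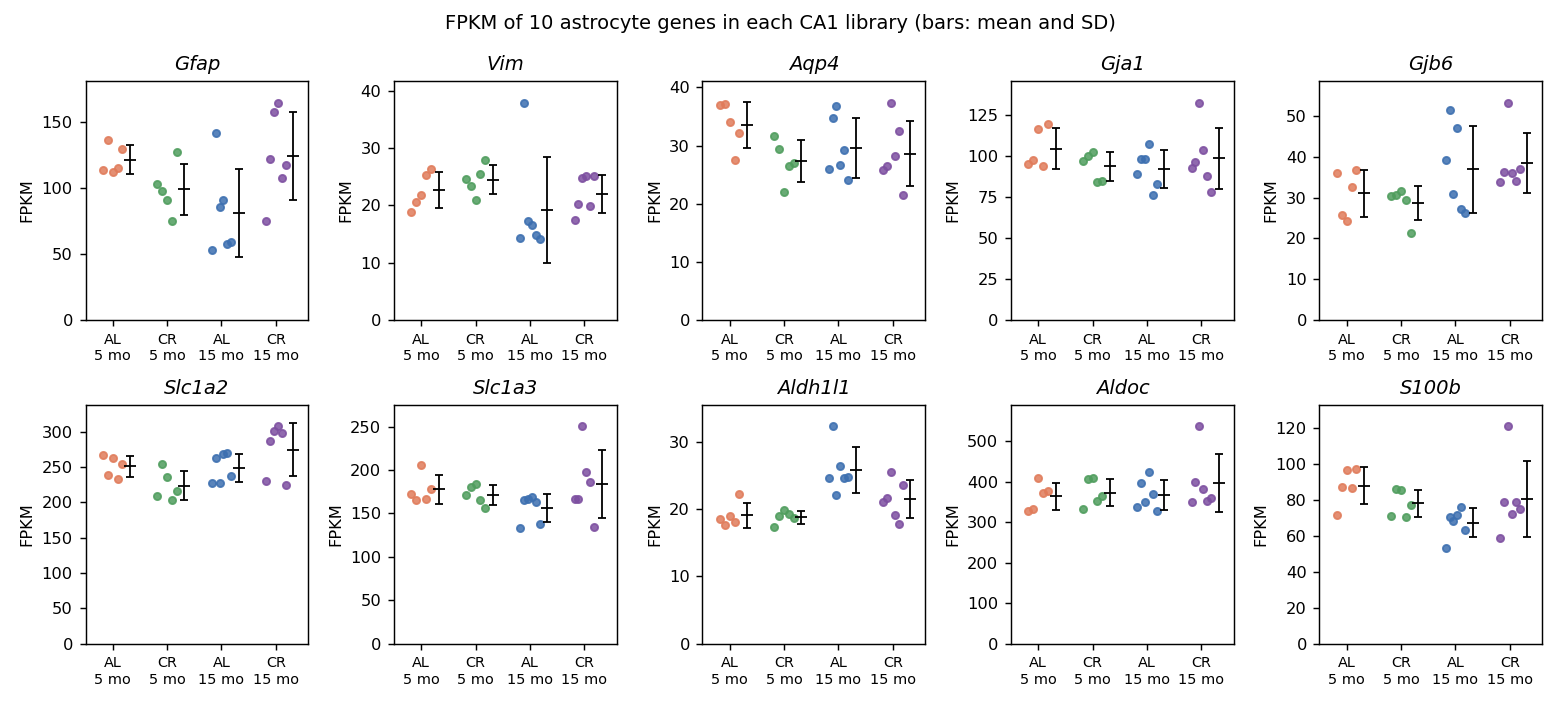
FPKM of each of the 10 astrocyte genes in each library, with AL and CR mice at 5 and 15 months on the horizontal axis, 1 point per mouse, and bars for the group mean and SD. Gfap in AL mice at 15 months lies at 53.3 to 90.6 FPKM in 5 libraries and at 141 in the other, and Aldh1l1 is highest in that group.

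Between 5 and 15 months in AL mice, Gfap and S100b fell and Aldh1l1 rose, while 7 of the 10 genes did not pass the test. A gene was called when limma, fitted to log2(FPKM + 0.1) of all genes tested, gave a Benjamini-Hochberg adjusted p under 0.05 over those genes. The 3 called of 10 compare with 20.6% of the 16978 genes tested in this contrast (10.7% higher and 9.97% lower in the older mice). At an unadjusted p under 0.05 the same 3 genes stood against 35.2% of all genes. The median log2 fold change was -0.19 over the 10 genes and 0.00 over all genes. The scale of these fold changes, log2(FPKM + 0.1), leaves genes at these levels almost unaffected by the added constant.

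Gfap encodes the main intermediate filament protein of astrocytes and lies at chr11:102887336-102900912 on the minus strand (GRCm38). In AL mice at 5 months the libraries had 114, 137, 112, 115 and 129 FPKM. In AL mice at 15 months the lowest was 53.3, the median 72.7 and the highest 141. In the older mice 5 of 6 libraries were below every 5-month library, and the other, replicate 1, was above them all. The group means were 121 ± 10.9 (SD, n = 5) and 81.3 ± 33.3 (n = 6). Gfap fell by 0.66 on the log2 scale (SE 0.22, limma adjusted p = 0.0388). A two-sided exact permutation over mice gave p = 0.0325. Without AL 15-month replicate 1 the log2 change was -0.84 (adjusted p = 0.0065).

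The Gfap call was close to the threshold. It was lost when any 1 of the 5 AL libraries at 5 months was left out (limma adjusted p 0.0533 to 0.0869) or when AL 15-month replicate 0, 4 or 5 was left out (adjusted p = 0.0867, 0.0828 and 0.0784). It was also lost with quantile normalization (adjusted p = 0.0685), with rescaling after small RNA genes were removed (0.0671), with both groups fitted alone (0.0538), and with the replicate number as a block (0.0536), and the log2 change in these 4 fits was -0.66 to -0.55.

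Vim encodes vimentin, the filament partner of GFAP, which endothelial, meningeal and ependymal cells also make (chr2:13573927-13582826, plus strand). It had 18.9, 20.7, 21.9, 25.3 and 26.4 FPKM in AL mice at 5 months and a lowest, median and highest of 14.1, 15.7 and 37.9 in AL mice at 15 months. As with Gfap, 5 of the 6 older libraries lay below all 5 younger ones and replicate 1 lay above all of them. The log2 change was -0.33 (SE 0.19, limma adjusted p = 0.227) and did not pass. Without AL 15-month replicate 1, Vim passed with -0.54 (adjusted p = 0.00342). That library had a summed level of 60.7 FPKM for the 6 meningeal fibroblast markers, against 3.99 to 12.4 in the other 5, and the part of these cells in its Vim and Gfap values was not tested.

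S100b, which encodes a calcium-binding protein made by astrocytes and also by some oligodendrocyte lineage cells, fell (chr10:76253853-76261159, plus strand). Its libraries had 71.9, 87.2, 96.6, 86.7 and 97.5 FPKM in AL mice at 5 months and 53.3, 69.6 and 76.3 (lowest, median, highest) at 15 months. The groups overlapped only through the lowest 5-month library. S100b fell by 0.39 on the log2 scale (SE 0.13, limma adjusted p = 0.0456, exact permutation p = 0.00866). The call was lost in 25 of 36 alternatives, among them leaving out AL 5-month replicate 1, 2, 3 or 4 (adjusted p 0.0699 to 0.11), any CR library at 5 months (0.0506 to 0.0518), AL 15-month replicate 0, 1, 2, 3 or 5 (0.0529 to 0.101) and CR 15-month replicate 1, 4 or 5 (0.0501 to 0.0522). S100b overlaps the gene Dip2a on the other strand, and the library kit did not mark strand.

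Aldh1l1, a folate-metabolizing enzyme gene that labels astrocytes broadly, rose and was the firmest of the 3 (chr6:90486427-90600203, plus strand). It had 18.5, 17.7, 19.0, 18.01 and 22.3 FPKM in AL mice at 5 months and a lowest, median and highest of 22.2, 24.7 and 32.3 at 15 months. The groups met at their edges only, since the lowest older library was just under the highest younger one. The log2 change was 0.43 (SE 0.093, limma adjusted p = 0.00348, exact permutation p = 0.00649), and the gene was called in 33 of 36 alternatives. Annotated genes that do not code for protein overlap Aldh1l1, and one of them is antisense.

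The remaining homeostatic genes did not pass in AL mice. Aqp4, the endfoot water channel, had means of 33.6 ± 3.98 (SD, n = 5) and 29.6 ± 5.14 FPKM (n = 6), a log2 change of -0.19 with a 95% interval of -0.47 to 0.092. Of the gap junction genes, Gja1 changed by -0.18 (interval -0.42 to 0.056) and Gjb6 by 0.22 (interval -0.14 to 0.59). Gjb6 was spread widely in the older mice, from 26.2 to 51.6 FPKM, and covered the whole younger range of 24.3 to 36.7 but for its lowest libraries.

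The transporters that clear glutamate from the synapse were also not called. Slc1a2 (GLT-1) had 251 ± 14.6 FPKM at 5 months and 249 ± 20.1 at 15 months, a log2 change of -0.015 (95% interval -0.21 to 0.18). Slc1a3 (GLAST) had 172, 165, 206, 167 and 178 FPKM at 5 months and 133, 164 and 169 (lowest, median, highest) at 15 months. All 6 older libraries were below the 5-month median of Slc1a3, with a log2 change of -0.19 (limma adjusted p = 0.243, exact permutation p = 0.0433, not adjusted for the 10 genes). Aldoc, the brain form of aldolase, was level at 364 ± 33.4 and 367 ± 37.2 FPKM (log2 change 0.013, interval -0.21 to 0.24).

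**Figure D2:**
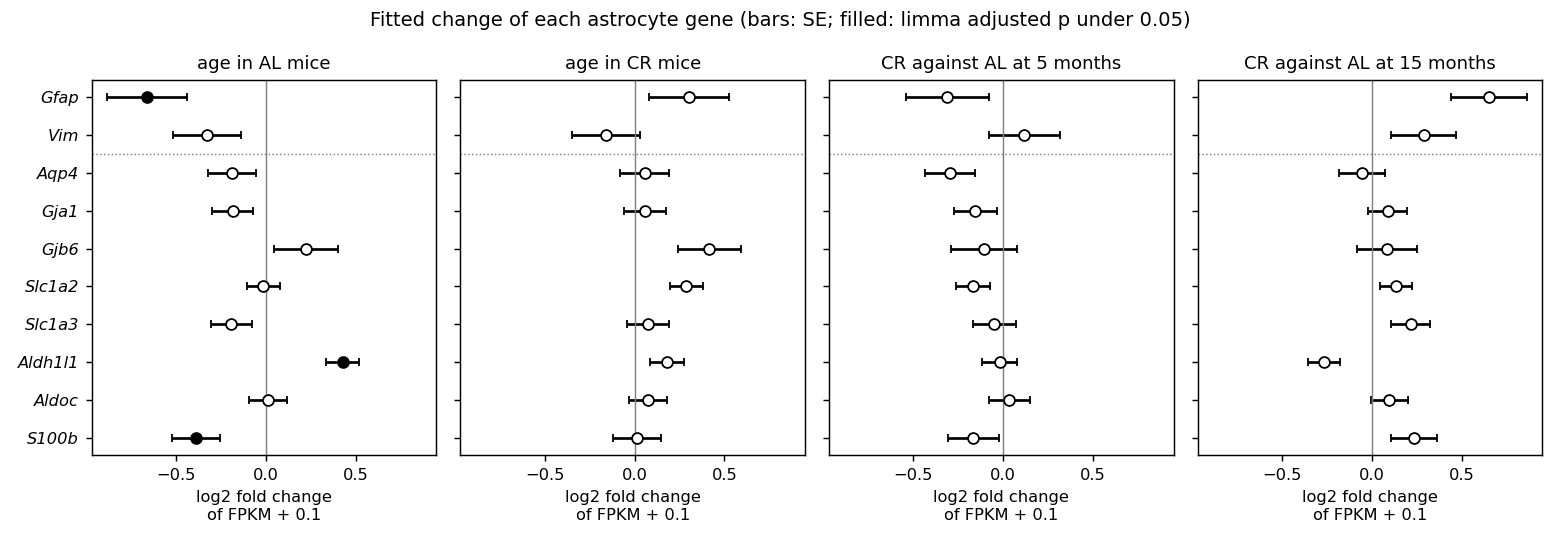
Fitted log2 fold change of each astrocyte gene in 4 comparisons, with points for the estimate, bars for 1 SE and filled points for a limma adjusted p under 0.05. The dotted line separates the reactive genes Gfap and Vim from the 8 homeostatic genes. Filled points are found for age in AL mice, where Gfap is at -0.66, S100b at -0.39 and Aldh1l1 at 0.43.

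Markers of neighboring regions and cell types moved in the same comparison. In AL mice with age, 4 of 7 CA1 pyramidal neuron markers fell (median log2 change -1.33), 3 of 6 dentate gyrus markers fell (-2.003), all 5 ependymal markers fell (-2.52) and 4 of 7 choroid plexus markers fell (-1.83). Neocortex and subiculum markers rose in 4 and fell in 1 of 10 (median 0.79), and 2 of 6 thalamic markers rose (0.40). Among other glia, 1 of 8 oligodendrocyte markers (list median -0.85, with 6 at an unadjusted p under 0.05) and 2 of 5 precursor markers (list median -0.34) were called. Tmem119 was the 1 called of 8 microglial markers (list median -0.27), and Hopx the 1 of 5 neural stem cell markers (list median -0.18). All of these called genes were lower, where 20.6% of all genes were called. None of 8 endothelial and pericyte markers (median 0.075) and none of 6 meningeal markers (0.19) was called, with 1 and 0 of them at an unadjusted p under 0.05. Of all genes, 35.2% had an unadjusted p under 0.05 by limma in this comparison.

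The summed level of the 6 dentate gyrus markers was 26.8 to 72.2 FPKM in AL mice at 5 months, 22.2 to 52.8 in CR mice at 5 months, 4.98 to 40.3 in AL mice at 15 months and 9.07 to 124 in CR mice at 15 months, and none was at 0 in any library. The 5 ependymal markers summed to 19.4 to 57.9 and 34.1 to 65.2 FPKM in AL and CR mice at 5 months, and to 6.99 to 23.5 and 8.45 to 14.4 at 15 months, with Tmem212 at 0 in 1 AL and 2 CR libraries of the older mice. Oligodendrocyte markers summed to 1207 to 1917 FPKM in AL mice at 5 months and to 584 to 1295 at 15 months. With the mean level of the dentate gyrus list as a covariate the Gfap change for age in AL mice was -0.28 (limma adjusted p = 0.496), and this fit and the next were chosen after the data were seen. With the ependymal list it was -0.58 (adjusted p = 0.406), with the oligodendrocyte list -0.58 (0.123), and with a region score, the neocortex and subiculum list less the CA1 list, -0.24 (0.749). Aldh1l1 changed by 0.40 (adjusted p = 0.0507), 0.38 (0.181), 0.52 (0.00208) and 0.48 (0.114) in these fits, in the same order, and S100b by -0.33, -0.26, -0.39 and -0.27 with no call. In AL mice the dentate gyrus and region scores did not overlap between the ages, and the ependymal score overlapped only at its edges. The dentate gyrus, region and ependymal covariates can therefore hardly be told apart from age. The oligodendrocyte score also overlapped only at its edges, but with it 3066 genes were called for age in AL mice, against 3502 without it. Because the tissue is bulk, fewer cells of a type and less RNA per cell cannot be told apart, and the part of the dissection in these results was not tested beyond these fits.

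**Figure D3:**
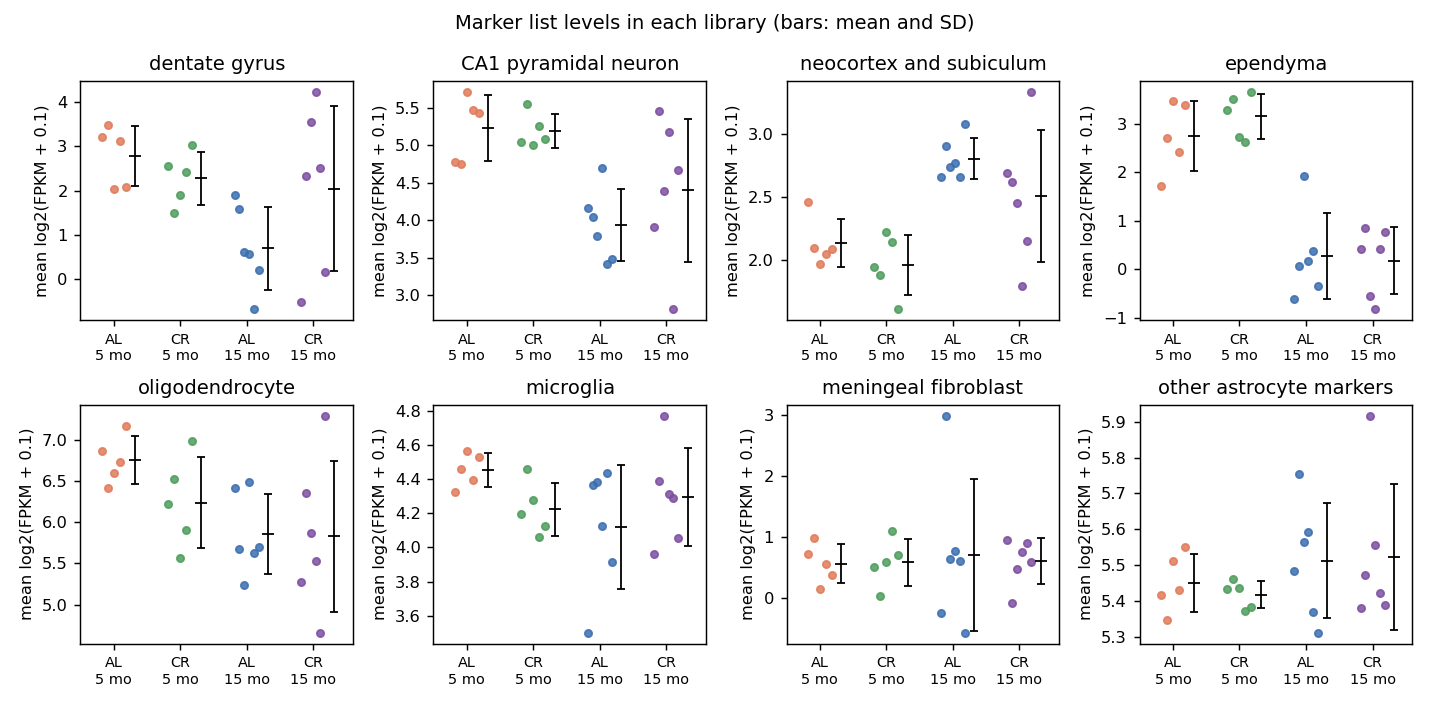
Mean log2(FPKM + 0.1) of 7 marker lists of other regions and cell types and of the other astrocyte markers in each library, with bars for the group mean and SD. The dentate gyrus and ependymal lists are lower in AL mice at 15 months than at 5 months, the meningeal fibroblast list is high in AL 15-month replicate 1 alone, and the astrocyte list shows no such step.

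In CR mice, no astrocyte gene was called between 5 and 15 months, while 3.36% of the genes tested were (1.1% higher and 2.26% lower in the older mice). The older CR mice had also been restricted for longer, so age and length of restriction cannot be told apart in this comparison. Slc1a2 and Gjb6 were the 2 of 10 with an unadjusted p under 0.05, as 18% of all genes had, and 9 of 10 changes were above 0 (median 0.076). Gfap had 103, 97.7, 90.7, 75.3 and 127 FPKM in CR mice at 5 months and 75.0, 119.8 and 165 (lowest, median, highest) at 15 months, with a log2 change of 0.30 (SE 0.22, limma adjusted p = 0.499). The older group spanned the whole range of the younger one. Vim had 24.5 ± 2.55 (SD, n = 5) and 22.1 ± 3.34 FPKM (n = 6), a change of -0.16 (adjusted p = 0.705).

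Slc1a2 had 209, 254, 237, 203 and 217 FPKM in CR mice at 5 months and 225, 293 and 308 (lowest, median, highest) at 15 months, and all 6 older libraries were above the younger median. The log2 change was 0.29 (SE 0.092, limma adjusted p = 0.088). It passed without CR 15-month replicate 0 (adjusted p = 0.0499) or replicate 5 (0.0402), with quantile normalization (0.0352) and with rescaling after small RNA removal (0.0409). Gjb6 had 30.5, 30.6, 31.6, 29.3 and 21.3 FPKM at 5 months and 33.8, 36.2 and 53.2 (lowest, median, highest) at 15 months. The groups did not overlap, as for 3.26% of all genes tested, and the log2 change was 0.42 (SE 0.18, adjusted p = 0.209, exact permutation p = 0.00216, the smallest the design allows). The 5 ependymal and 6 of 7 choroid plexus markers fell in this comparison too, and the ependymal list level did not overlap between the ages in CR mice, so a fit with it as a covariate can hardly tell it apart from age (Gjb6 change -0.024, with calls over all genes at 0).

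At 5 months, CR and AL mice did not differ in any astrocyte gene by limma, and 0% of all genes tested was called. An unadjusted p under 0.05 was found for 789 genes, or 4.65%, and for 1 of the 10 astrocyte genes, Aqp4. No astrocyte gene separated the diets without overlap, against 1.36% of all genes. Aqp4 had 37.0, 37.2, 34.0, 27.5 and 32.2 FPKM in AL mice and 31.7, 29.4, 22.04, 26.5 and 27.1 in CR mice. All 5 CR libraries were below the AL median, though the ranges overlapped, and the log2 difference was -0.30 (SE 0.14, 95% interval -0.59 to -0.0053, limma adjusted p = 1). Gfap was 121 ± 10.9 in AL and 98.9 ± 19.1 FPKM in CR mice (SD, n = 5 each), a difference of -0.31 with an interval of -0.79 to 0.17. In Slc1a2, Gjb6 and S100b all 5 CR libraries were also below the AL median, with differences of -0.17, -0.11 and -0.17, none of which passed.

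At 15 months, no astrocyte gene passed between the diets, against 0.742% of the genes tested (0.33% higher and 0.412% lower in CR mice). Gfap and Aldh1l1, 2 of 10, had an unadjusted p under 0.05, as 17.1% of all genes had. The ranges of the diets overlapped for all 10 genes, whereas they did not for 0.984% of all genes. Gfap was at 53.3, 72.7 and 141 FPKM (lowest, median, highest) in AL mice and at 75.0, 119.8 and 165 in CR mice. All 6 CR libraries were above the AL median, and the ranges overlapped through AL replicate 1 and CR replicate 0. The log2 difference was 0.65 (SE 0.21, 95% interval 0.21 to 1.09, unadjusted p = 0.00567, limma adjusted p = 0.131, exact permutation p = 0.0476). Without CR 15-month replicate 0, which had the lowest Gfap and the lowest dentate gyrus list level of its group, the difference was 0.79 and passed (adjusted p = 0.0362).

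In Vim, every CR library at 15 months also exceeded the AL median, with a log2 difference of 0.29 (SE 0.18, limma adjusted p = 0.433). Aldh1l1 was 25.8 ± 3.44 FPKM in AL and 21.5 ± 2.83 in CR mice (SD, n = 6 each), with 5 of 6 CR libraries below the AL median and a difference of -0.26 (SE 0.089, adjusted p = 0.147, exact permutation p = 0.0281). S100b differed by 0.24 (adjusted p = 0.354), Slc1a3 by 0.22 (0.319), Slc1a2 by 0.13 (0.447), Aldoc by 0.098 (0.652), Gja1 by 0.088 (0.713), Gjb6 by 0.086 (0.827) and Aqp4 by -0.054 (0.863). The dentate gyrus list had a median difference of 1.15 in the same comparison with 0 of 6 genes called by limma and 2 at an unadjusted p under 0.05, and with that list as a covariate the Gfap difference was 0.41 (adjusted p = 0.549).

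The comparison of age in AL mice and the comparison of diets at 15 months share the 6 AL libraries at 15 months. Side by side, on the log2 scale, Gfap had -0.66 and 0.65, Vim -0.33 and 0.29, S100b -0.39 and 0.24, Aldh1l1 0.43 and -0.26, Slc1a3 -0.19 and 0.22, Gja1 -0.18 and 0.088, and Slc1a2 -0.015 and 0.13. Aqp4 had -0.19 and -0.054, Gjb6 0.22 and 0.086, and Aldoc 0.013 and 0.098. With shared libraries, a high or low value in them moves both changes, in opposite directions. The difference between the age changes of CR and AL mice was tested as an interaction, in which 0% of all genes were called by limma and 1301, or 7.66%, had an unadjusted p under 0.05. For Gfap this difference was 0.96 (SE 0.31, 95% interval 0.31 to 1.62, unadjusted p = 0.00577, adjusted p = 0.608). Slc1a2 (0.30, unadjusted p = 0.0289) and S100b (0.40, 0.046) were, with Gfap, the 3 of 10 astrocyte genes with an unadjusted p under 0.05. A difference in the age effect between diets was therefore not shown for any of the 10 genes.

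Levels of the reactive genes relative to the homeostatic genes were summarized in each library. These summaries were chosen with the values in view and carry no test, and Gfap over Aldh1l1 restates a pair of genes called in opposite directions. The FPKM ratio of Gfap to Aldh1l1 was 6.39 ± 0.784 in AL (SD, n = 5) and 5.29 ± 1.15 in CR mice at 5 months (n = 5), 3.10 ± 0.93 in AL mice at 15 months (n = 6) and 5.83 ± 1.66 in CR mice at 15 months (n = 6). In AL mice at 15 months every library lay between 2.16 and 4.38, below the lowest AL library at 5 months, 5.80. The range in CR mice at 15 months, 3.56 to 8.60, reached down into that of the AL mice.

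Across all 10 genes, the mean log2 level of Gfap and Vim less that of the 8 homeostatic genes was -0.71 ± 0.13 in AL mice at 5 months, -0.69 ± 0.24 in CR mice at 5 months, -1.17 ± 0.41 in AL mice at 15 months and -0.77 ± 0.25 in CR mice at 15 months. In AL mice at 15 months 5 libraries lay from -1.48 to -1.11 and replicate 1 at -0.38. The FPKM ratio of Gfap to Vim was 5.44 ± 0.848, 4.04 ± 0.623, 4.33 ± 0.732 and 5.57 ± 0.915 in the same order of groups. Within the homeostatic genes, the ratio of Slc1a2 to Slc1a3 was 1.42 ± 0.099, 1.31 ± 0.089, 1.61 ± 0.13 and 1.52 ± 0.20, and that of Gja1 to Gjb6 was 3.48 ± 0.852, 3.31 ± 0.411, 2.61 ± 0.524 and 2.58 ± 0.266.

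**Figure D4:**
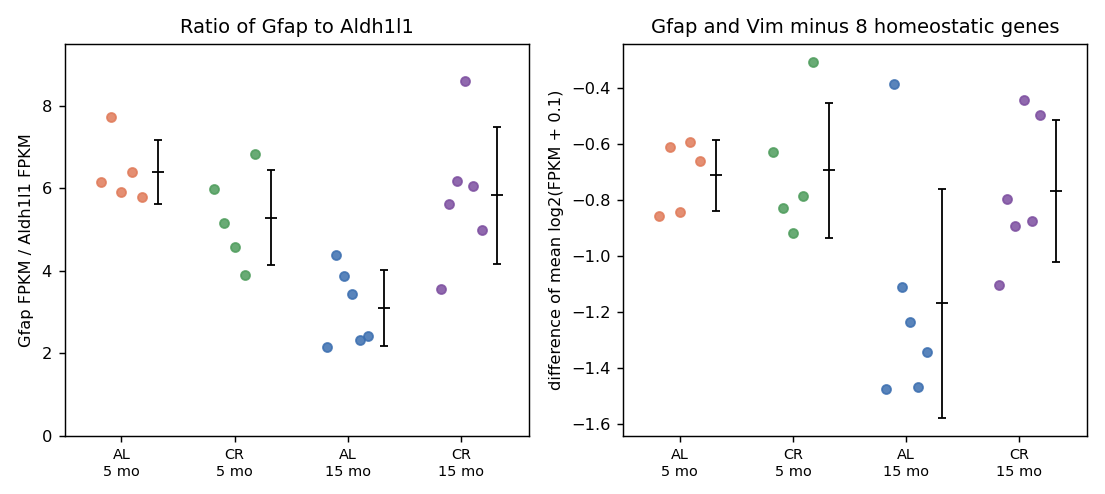
On the left, the FPKM ratio of Gfap to Aldh1l1 in each library, and on the right, the mean log2(FPKM + 0.1) of Gfap and Vim less that of the 8 homeostatic genes, with bars for the group mean and SD. Ratios in AL mice at 15 months run from 2.16 to 4.38 and those in AL mice at 5 months from 5.80 to 7.74, and AL 15-month replicate 1 stands apart on the right at -0.38.

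Other genes of reactive astrocytes were called at about the share of all genes. In a panel of 11, of which 10 were tested and Steap4 was too low, 1 rose and 1 fell with age in AL mice (median log2 change 0.16), next to 20.6% of all genes called. Serpina3n, a protease inhibitor gene that is among the most used markers of reactive astrocytes, fell from 34.7, 66.1 and 82.1 FPKM (lowest, median, highest) at 5 months to 10.5, 22.4 and 32.2 at 15 months, and the groups did not overlap, as for 14% of all genes tested. Its log2 change was -1.66 (SE 0.30, limma adjusted p = 0.00102). Cd44, a hyaluronan receptor gene that neurons and immune cells also use, rose from 0.522 ± 0.067 (SD, n = 5) to 3.03 ± 0.596 FPKM (n = 6), a change of 2.32 (adjusted p = 0.00139). Lcn2 was near 0 throughout, with group means of 0.048 to 0.32 FPKM.

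Among 4 partners of the GFAP filament, Plec, the filament linker plectin, rose (13.0 ± 0.84 to 21.5 ± 2.02 FPKM, log2 change 0.72, limma adjusted p = 0.000642) and Synm, the filament protein synemin, fell (14.7 ± 1.93 to 11.7 ± 1.17, -0.33, adjusted p = 0.0406). Nestin (Nes, -0.21) and the chaperone gene Cryab (-0.25) did not pass. Of 15 genes that carry or control the signals known to induce GFAP, 3 rose and 1 fell, against the same 20.6%. At an unadjusted p under 0.05 by limma there were 8 of the 15, against 35.2% of all genes. Socs3, the feedback inhibitor of this cytokine pathway, rose from 0.462 ± 0.10 to 1.99 ± 0.187 FPKM (log2 change 1.91, adjusted p = 0.000515), the Notch target Hes5 rose by 0.89 (adjusted p = 0.0476) and the receptor gene Cntfr, which is mainly neuronal, by 0.40 (0.00906). Nfia, a transcription factor of astrocyte development that neurons also express, fell by 0.44 on the log2 scale (adjusted p = 0.0477), and Stat3 itself was 11.3 ± 0.564 and 12.4 ± 1.13 FPKM (0.13, adjusted p = 0.152).

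None of 9 genes that anchor Aqp4 at endfeet or partner it passed in AL mice (median -0.099) by limma. An unadjusted p under 0.05 was found for 1 of them, against 35.2% of all genes. None of 5 connexin partners passed (median -0.49), with 2 at an unadjusted p under 0.05, and the list includes Gjb1 (-0.72) and Gjc3 (-0.49), which are connexin genes of oligodendrocytes. Among 10 genes of transmitter uptake and the glutamine cycle, Slc1a1, the neuronal glutamate transporter, alone was called, from 62.3 ± 4.26 to 42.6 ± 4.15 FPKM (-0.55, adjusted p = 0.000421). Glutamine synthetase (Glul), the astrocyte enzyme of the cycle, was 350 ± 58.8 and 310 ± 38.8 FPKM (-0.17, adjusted p = 0.327). Of 30 other astrocyte markers, 3 rose and 0 fell in AL mice (median 0.017), where 10.7% of all genes rose and 9.97% fell, with Chrdl1, a secreted regulator of synapse maturation, at 1.37 (adjusted p = 0.00778), Itih3 at 0.87 (0.00241) and the mitochondrial glutamate carrier Slc25a18 at 0.39 (0.0216).

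**Figure D5:**
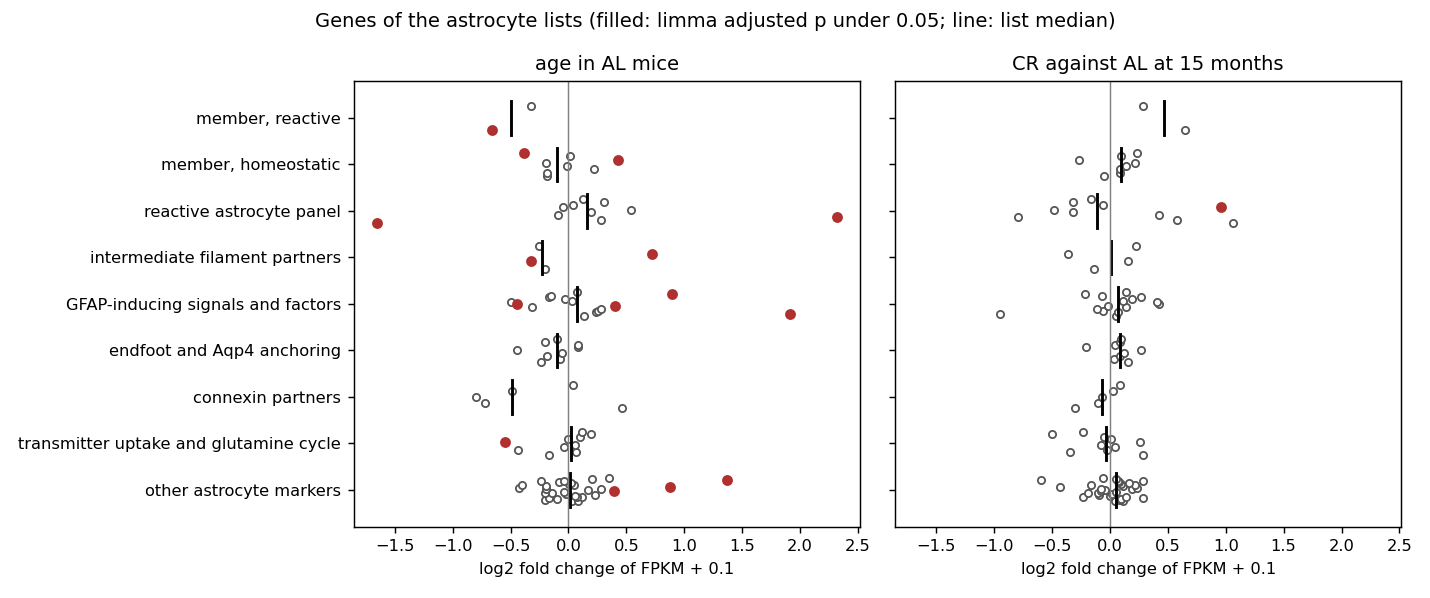
Log2 fold change of each gene in 9 astrocyte lists for age in AL mice (left) and for CR against AL mice at 15 months (right), with a bar at each list median and filled points for a limma adjusted p under 0.05. On the left, called genes lie on both sides of 0 in the reactive panel, from Serpina3n at -1.66 to Cd44 at 2.32, and on the right Hspb1 at 0.96 is the one filled point.

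In the other comparisons these lists held few calls, as did all genes tested. Of all genes, 3.36% were called with age in CR mice, 0% between diets at 5 months and 0.742% between diets at 15 months. With age in CR mice, Hes1, a Notch target, fell by 0.53 on the log2 scale (limma adjusted p = 0.0249) and Chrdl1 rose by 1.29 (adjusted p = 0.0373), and in the other 5 lists no gene was called. Between the diets at 5 months no gene of the 7 lists was called, with 0 to 3 a list at an unadjusted p under 0.05, against 4.65% of all genes. At 15 months, Hspb1, a small heat shock protein gene induced in reactive astrocytes, was higher in CR mice (12.9 ± 2.60 against 6.87 ± 2.70 FPKM, SD, n = 6 each), with a log2 difference of 0.96 (SE 0.22, limma adjusted p = 0.0497). This call was close to the threshold, and with both groups fitted alone 0 of all genes were called between the diets at 15 months. Serpina3n was 43.1 ± 16.4 in CR against 20.9 ± 8.37 FPKM in AL mice, a difference of 1.06 (adjusted p = 0.0783), and every CR library exceeded the AL median. The reactive panel as a whole did not lie higher in CR mice, with a median log2 difference of -0.11 over its 10 tested genes. Of these, 4 had an unadjusted p under 0.05 by limma, against 17.1% of all genes.

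The deviations of the astrocyte genes from their group means were compared between mice. Of 45 pairs of the 10 genes, 44 had a positive Pearson r of their deviations from the group means over 22 libraries (median 0.44), in which all genes of a library share its dissection and scaling. Taken group by group, 44 pairs were positive in AL and 43 in CR mice at 15 months, 30 in AL and 25 in CR mice at 5 months, and 17 in all 4 groups. In CR mice at 5 months, Vim had r = -0.96 with Slc1a3, -0.85 with Gja1 and -0.82 with Gjb6, over 5 libraries each. In that group replicate 4 had the highest Vim (27.9 FPKM) and the lowest Slc1a3 (156) and Gjb6 (21.3). Its choroid plexus markers summed to 272 FPKM, against 11.3 to 62.8 in the other libraries of the group. The part of these cells in its values was not tested. The reactive genes Gfap and Vim had r = 0.79 and Spearman rho = 0.705, with permutation p adjusted over the 45 pairs of 0.0045 and 0.0159, and r = 0.641 without the 2 libraries farthest from the median of Gfap. The r within groups was 0.91 in AL and 0.86 in CR mice at 15 months and 0.15 and 0.46 in AL and CR mice at 5 months. Aldoc and S100b had r = 0.848 and rho = 0.775 (adjusted permutation p = 0.0009 and 0.0036), and r = 0.743 without the 2 farthest libraries. Gja1 and Slc1a3 had r = 0.79 and rho = 0.703 (adjusted permutation p = 0.00657 and 0.0159), and 0.593 without the 2 farthest libraries. Gfap had r from 0.37 to 0.48 with the 8 homeostatic genes, none of which passed (adjusted permutation p 0.132 to 0.238), and within groups these ranged down to -0.71 (Gjb6, CR mice at 5 months).

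The genes most like each pattern were found by the Pearson r of the same deviations over 22 libraries among 13839 genes with a mean of at least 1 FPKM. For Gfap they were Cnn3 (r = 0.836), Slc41a1 (0.831), Phka1 (0.803), Irf5 (0.802) and Nfe2l2 (0.80). For Vim they were Bgn (0.874), Kank2 (0.866), Emp1 (0.862), Arpc1b (0.854) and Mir376b (0.844). Vim stood far above its group in AL 15-month replicate 1 (37.9 FPKM, next 17.2), which can weigh heavily in r. The ranking was not repeated without that library. For the mean of the 8 homeostatic genes they were Mlc1 (0.902), Acsbg1 (0.889), Ndrg2 (0.888), Axl (0.886) and Asrgl1 (0.884), of which the first 3 were also on the list of other astrocyte markers.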

How the data were processed

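The authors used TopHat for alignment to mm10 and Picard against PCR duplicates, and deposited FPKM from the Cufflinks package with corrections for fragment bias and multiply mapping reads. Versions and annotation release are not given in the sources used here. The library kit does not mark strand, so a gene cannot be told apart from a gene on the other strand (for Gfap, Aldh1l1, Aqp4, Slc1a2 and S100b). All 22 columns of the matrix were used and 0 value columns were left out. FPKM steps did not give whole reads, since at most 0.246% of low genes in any of 3 library pairs shared 1 ratio within 0.1%. Small RNA genes held 40.9% to 64.9% of a library's summed FPKM. Correlations of log2 levels between libraries ran from 0.889 to 0.945, and 0 pairs were identical.

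Genes with a mean of at least 0.1 FPKM (16978) were fitted as log2(FPKM + 0.1) with limma 3.58.1 in R 4.3.3 (lmFit over 4 groups, eBayes with trend), a test tried first on simulated data. Adjusted p is Benjamini-Hochberg over all genes of a comparison, two-sided. Members were also compared by exact permutation over mice, with a smallest p of 0.00216 for 5 against 6. Python 3.11.15 was used with pandas 2.3.3, numpy 2.4.6 for permutation, matplotlib 3.10.9 for plots and scipy 1.17.1 for ranks and the adjustment of correlation p values. Correlations used 100000 resamples within groups. Coordinates are from GENCODE M21 on GRCm38. The members and 19 further gene lists were chosen with earlier results of these data known. From the lists, the called genes with the 3 largest changes with age in AL mice and between diets at 15 months and a mean of at least 1 FPKM are named, with defining genes, and the 5 genes most like each pattern. Other genes named were chosen after their values were seen, and some genes of the lists are not reported here by name. Replicates are separate mice. Nothing in the labels says that replicate numbers pair mice. Among 31 pairs with the same number the correlation of deviations was -0.139 to 0.163 and was over 0.1 in 2. Low correlations cannot exclude a pairing.

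Alternatives were pseudocounts of 1 and 0.01, no filter, a mean of at least 1 FPKM, a common median, quantile normalization, rescaling without small RNA genes, no trend, both groups alone, the replicate block, list scores as covariates, and each library left out.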

Additional observations from a re-analysis of the deposited data

Results flagged for a closer look

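In 6 of the 40 sets of gene and group, a library lay farther from the rest than Dixon's 95% limit, which chance passes in about 1 set in 20. Vim was 37.9 FPKM in AL 15-month replicate 1, where the next library was at 17.2. CR 15-month replicate 2 stood apart in 3 homeostatic genes, with Gjb6 at 53.2 FPKM (next 37.0), Aldoc at 536 (next 399) and S100b at 121 (next 78.8). At 5 months, Gjb6 was low in CR replicate 4 at 21.3 FPKM (next 29.3), and Aldh1l1 was high in AL replicate 4 at 22.3 (next 19.0). No explanation of these values was tested.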

How the results depend on the processing

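The depth of single libraries was not used here, and 5 or 6 mice a group limit what can be called. The region, dentate gyrus and ependymal scores separate the ages in AL mice almost or wholly, as the ependymal score does in CR mice, so fewer calls with them follow in part from that construction. With age in AL mice 3 of the 10 genes were called, and 1 was called with quantile normalization, with rescaling without small RNA genes or with the oligodendrocyte covariate, 0 with the region, dentate gyrus or ependymal covariate, and 1 to 3 with a library left out. Over 36 alternatives Aldh1l1 was called in 33, Gfap in 20, S100b in 11 and Vim in 1. With age in CR mice 0 were called, 1 with quantile normalization or rescaling, and 0 to 1 with a library left out, and between diets at 15 months 0 were called, and 0 to 1 with a library left out. With the replicate number as a block, which shares no mice, 2, 0, 0 and 0 genes were called in the 4 comparisons and 0 in the interaction, and Gfap with age in AL mice was -0.62 (limma adjusted p = 0.0536). All genes called with age in AL mice numbered 3502, and 21, 773 and 415 with the region, dentate gyrus and ependymal covariates, 2383 to 3919 with a library left out. With age in CR mice there were 570, and 304 at a mean of at least 1 FPKM, 324 with both groups alone, 180 and 0 with the region and ependymal covariates, and 332 to 774 with a library left out. Between diets at 15 months there were 126, and 77 with quantile normalization, 195 with rescaling, 323 with the block, 7 and 12 with the region and dentate gyrus covariates, 0 with both groups alone, and 15 to 732 with a library left out (15 without AL replicate 0 or 4 or CR replicate 3 at 15 months, 732 without CR 15-month replicate 0). Between diets at 5 months there were 0, and 1 without trend or with the dentate gyrus covariate, and 0 to 1 with a library left out, as in the interaction. Of genes called with age in AL mice 1809 rose and 1693 fell, against 1441 and 2286 after a common median and 3113 and 927 after rescaling, which moved the median of all genes from -0.0018 to 0.11. Between diets at 15 months 56 were higher and 70 lower, against 87 and 51, 52 and 25, and 31 and 164 after a common median, quantile normalization and rescaling. No called astrocyte gene changed direction. Uncalled changes that crossed 0, all with the cause not tested, were, with age in AL mice, Slc1a2 (quantile 0.10, rescaled 0.10, block 0.019, region 0.12, dentate gyrus 0.089), Aldoc (common median -0.033, ependymal -0.0040), Gja1 (region 0.068) and Gjb6 (ependymal -0.14). With age in CR mice they were Aqp4 (oligodendrocyte -0.0016), Gjb6 (ependymal -0.024) and Vim (region 0.0071). Between diets they were Aldh1l1 at 5 months (oligodendrocyte 0.037) and, at 15 months, Gja1 (region -0.010) and Gjb6 (dentate gyrus -0.018), and in the interaction Aldoc (quantile -0.00053, rescaled -0.020, region -0.0027). With a library left out, Aldoc ran from -0.029 to 0.056, -0.014 to 0.11, -0.0013 to 0.077 and -0.027 to 0.11 for age in AL mice, age in CR mice, diet at 5 months and the interaction. Age in CR mice ran from -0.11 to 0.10 for S100b, -0.025 to 0.13 for Aqp4, -0.031 to 0.12 for Gja1 and -0.019 to 0.16 for Slc1a3, and age in AL mice from -0.041 to 0.0097 for Slc1a2. Diet at 5 months ran from -0.046 to 0.038 for Aldh1l1 and -0.076 to 0.0033 for Slc1a3, and diet at 15 months from -0.13 to 0.025 for Aqp4, -0.0014 to 0.15 for Gja1 and -0.012 to 0.19 for Gjb6.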

Other observations

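Levels of the homeostatic genes went with those of microglia from mouse to mouse. Over 22 libraries, deviations from the group means of the 8 homeostatic genes' mean log2 level and of the 8 microglial markers' mean level had Pearson r = 0.741 and Spearman rho = 0.775 (permutation p adjusted over 36 relations of 3 astrocyte patterns with 12 lists, 0.0288 and 0.0112). The r was 0.633 without the 2 libraries farthest from the median of the homeostatic mean, and 0.66, 0.93, 0.55 and 0.96 within AL and CR mice at 5 months and AL and CR mice at 15 months. None of the other 35 relations passed the correction. Gfap and the dentate gyrus list had r = 0.555 and rho = 0.496 (adjusted permutation p = 0.317 and 0.506), r = 0.407 without the 2 farthest libraries, and r = 0.86 within CR mice at 15 months against 0.22 to 0.45 within the other groups. Vim and the meningeal fibroblast list had r = 0.724 and rho = 0.196 (adjusted permutation p = 0.317 and 0.776), and r = 0.341 without the 2 farthest libraries. These relations were computed after the data were seen, and all values of a library share its scaling.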
